A study of Mus musculus with 17 samples.

Results

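The matrix metalloproteinases (Mmp), the tissue inhibitors of metalloproteinases (Timp), the ADAMTS proteases (Adamts) and the ADAMTS-like proteins (Adamtsl) were followed through a mouse model of ovarian cancer. Members were taken by gene symbol, as every gene of the count table named Mmp, Timp 1 to 4, Adamts or Adamtsl followed by a number, with a final a or b allowed for Mmp. This gave 51 of 43629 genes, namely 23 Mmp, 4 Timp, 19 Adamts and 5 Adamtsl genes. MMPs are zinc endopeptidases, secreted or held at the cell surface, that are made as inactive proenzymes and cut collagens, laminins, proteoglycans and many signalling proteins. TIMPs are small secreted proteins that block the active site of MMPs and, in part, of ADAMTS enzymes. ADAMTS proteases are secreted, carry thrombospondin repeats and cut proteoglycans or trim procollagens, while ADAMTS-like proteins share their ancillary domains but lack the protease domain. In ovarian cancer, cells shed into ascites reach the peritoneal lining and invade the matrix beneath it, a step in which these enzymes have long been studied.

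The model uses ID8, a line derived from mouse ovarian surface epithelium and grown here in DMEM with 10% FBS, for which there was 1 library of cultured cells. ID8 cells were placed under the bursa of the right ovary (orthotopic tumours, 3 libraries) or under the skin (subcutaneous tumours, 2 libraries, numbered 2 and 3; the protocol names the flank and the sample label the scruff). Mice with orthotopic tumours went on to ascites, drawn by syringe at a first tap (3 libraries) and a second tap (3 libraries), and to tumours on the intestine (3 libraries). Healthy ovary and healthy intestine of C57BL6 mice gave 1 library each. All tumours and ascites thus come from the same line, and no group carries a further treatment. The labels do not give the age or strain of the hosts, or which libraries share a mouse, so p-values measure only the spread between these libraries, and taps may come from the same animals.

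Libraries held 12031221 to 38902048 counts, with a median of 27342134, and replicates differed more in some groups than in others: the correlation of log counts was 0.967 to 0.981 among orthotopic tumours and 0.867 between both subcutaneous tumours. Subcutaneous tumour 3, first tap 3 and second tap 1 had the most genes with a count (33393, 32846 and 32775). Marker lists showed other cells beside the tumour. A list of 7 intestinal epithelial genes summed to 3169 to 11697 CPM (the count of a gene scaled to a common library size, in the usual unit) in the tumours on the intestine and 11080 CPM in healthy intestine, against 5.61 to 8.74 CPM in orthotopic tumours. The 6 macrophage genes summed to 997 to 6257 CPM in ascites and 246 to 366 CPM in orthotopic tumours. Fibroblast genes, 7 in number, summed to 142 to 951 CPM in ascites and to 1374 to 2420 CPM in orthotopic tumours. Granulosa and steroidogenic genes summed to 571 to 648 CPM in orthotopic tumours, 2993 CPM in healthy ovary and 16.7 CPM in cultured cells. Intestinal tumours held 13.2 to 140 CPM of them, and first taps 66.7 to 508 CPM. Smooth muscle genes summed to 1124 to 1757 CPM in intestinal tumours, 777 CPM in healthy intestine and 81.4 to 154 CPM in orthotopic tumours. The part of these 2 lists in the member differences was not tested. Adipocyte genes reached 4183 CPM in subcutaneous tumour 2 against 19.9 CPM in subcutaneous tumour 3, which in turn held 760 CPM of keratinocyte genes against 78.6 CPM. B cell genes summed to 1268 and 4.12 CPM and T cell genes to 175 and 15.8 CPM in subcutaneous tumours 2 and 3. In such bulk tissue, fewer cells of a type and less RNA per cell cannot be told apart.

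The members made up 0.0431% of all counts in healthy intestine and at most 0.436%, in subcutaneous tumour 3. Of the 51, 39 had a mean of at least 10 CPM in 1 or more of the 8 groups, 5 stayed below 1 CPM in every group, and 49 passed the low-count filter (above 0.5 CPM in at least 2 libraries), all but Mmp1b and Mmp27. CPM were computed after TMM scaling of library sizes. Subcutaneous tumours held the highest mean of 6 Mmp, 6 Adamts and 1 Timp gene, healthy ovary that of 3 Mmp, 4 Adamts and 2 Adamtsl genes, and orthotopic tumours that of 4 Mmp, 3 Adamts and 1 Timp gene. Some of the subcutaneous means were low, such as 0.614 CPM for Mmp1b and 2.35 CPM for Adamts18, and that of Timp4 rested on subcutaneous tumour 2. Mmp1a, Mmp1b, Adamts13, Adamts17, Adamts18 and Adamts20 were highest in subcutaneous tumour 3, the library with the most genes with a count. The share of all genes highest in each group was not computed. The cell line had 16 members with no count, 6 of them Mmp genes, 9 Adamts or Adamtsl genes, and Timp4.

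**Figure D1:**
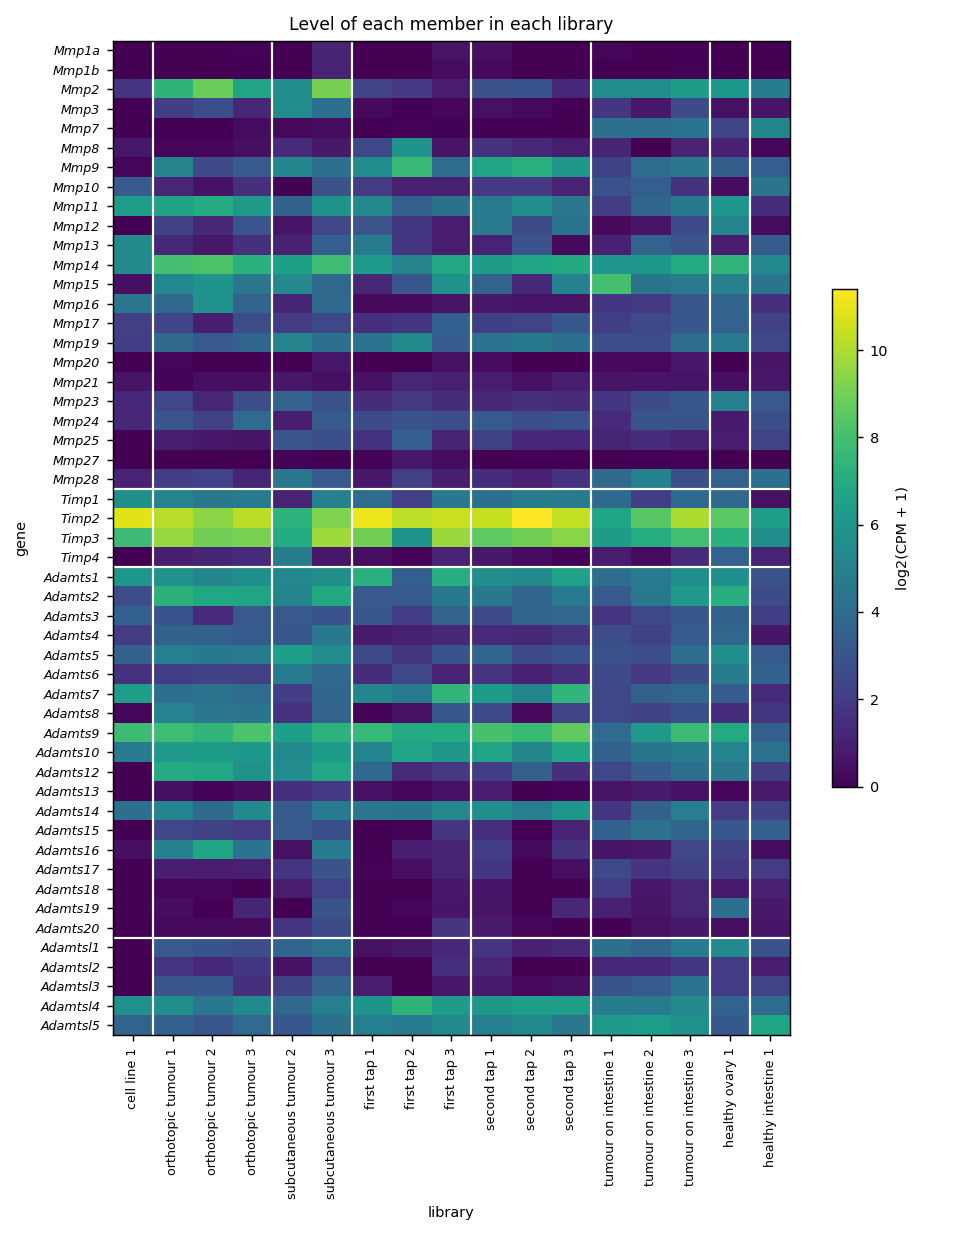
Expression of the 51 members (rows, grouped as Mmp, Timp, Adamts and Adamtsl) in the 17 libraries (columns, grouped by tissue), coloured by log2(CPM + 1). Timp2 and Timp3 were high in nearly every library, whereas Mmp7 stood above 10 CPM only in the 3 tumours on the intestine and in healthy intestine.

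Across the 5 replicated groups (orthotopic, subcutaneous, first tap, second tap, intestine), 18 of the 49 tested members differed at an adjusted p under 0.05 in edgeR's quasi-likelihood F test with Benjamini-Hochberg adjustment over 22671 genes, where 17% of all genes did. They were 6 of 21 Mmp, 1 of 4 Timp, 7 of 19 Adamts and 4 of 5 Adamtsl genes. The smallest adjusted p belonged to Mmp7 (0.000289), Adamtsl1 (0.000453), Adamts4 (0.00159), Mmp2 (0.00179) and Mmp16 (0.00261). Without single libraries the count ran from 12 to 24.

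Against orthotopic tumours, 5 members fell in the first tap (Mmp2, Mmp16, Adamts4, Adamts5 and Adamtsl1), where 0.891% of all genes fell, and 3 in the second tap (Mmp2, Mmp16 and Adamts4), where 0.578% did. No member rose in either tap. The median log2 difference over the 49 members was -0.59 in the first tap, against 0.18 over all genes, and 0.12 in the second, against 0.13. These calls stood close to the threshold: none of the 5 was left without orthotopic tumour 1, without orthotopic tumour 2 or without first tap 2, 10 were made without first tap 3, and none of the 3 was left without any 1 of the 6 libraries of that comparison. The smaller fits keep fewer libraries to estimate the spread.

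Subcutaneous tumours, set against both taps together, had 12 members higher, where 5.44% of all genes were, and 1 lower, where 0.878% were. Tumours on the intestine had 11 members higher than both taps, against 12.4% of all genes, and 3 lower, against 5.85%. The medians over the members were 1.26 and 0.74, beside 0.06 and -0.17 over all genes. Both comparisons use the same 6 ascites libraries, which may not be independent. Deviations from the group means correlated at 0.673 between first tap 1 and second tap 2. They correlated at 0.415 between first tap 2 and second tap 1 and at 0.441 between first tap 3 and second tap 3. Each of these pairs also shares a prefix of its library names, S for the first pair and SM for the others. Over all pairs across replicated groups, the highest correlation was 0.673 with a shared prefix and 0.341 without. A shared mouse and a shared name series cannot be told apart here. The labels do not say which taps share a mouse, so p-values over both taps would be too small if some do. With the first tap only, 6 members were higher in subcutaneous tumours (Mmp2, Mmp3, Adamts4, Adamts5, Adamts6 and Adamtsl1) and 7 in intestinal tumours (Mmp2, Mmp3, Mmp7, Mmp28, Adamts4, Adamtsl1 and Adamtsl3). With the second tap only, the same genes passed, 8 in all for subcutaneous tumours with Adamts12 and Adamtsl3, and 11 in all for intestinal tumours with Adamts15 higher and Mmp9, Adamts7 and Adamts10 lower. Calls for Mmp16, Mmp23 and Adamtsl4 in both comparisons, for Mmp28 and Timp4 in subcutaneous and for Adamtsl5 in intestinal tumours passed with neither tap alone. Leaving out single libraries gave 9 to 18 members for subcutaneous tumours and 8 to 17 for tumours on the intestine; the latter fell to 8 without intestinal tumour 2 and 9 without intestinal tumour 1.

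Against orthotopic tumours, tumours on the intestine had 3 members higher (Mmp7, Mmp28 and Adamtsl5), where 10.4% of all genes were, and 3 lower (Mmp11, Adamts10 and Adamts12), where 5.13% were. Only Mmp7 and Adamtsl5 of the 6 were left without orthotopic tumour 1 or 2, or without intestinal tumour 1 or 2, and 12 members passed without intestinal tumour 3. Against subcutaneous tumours, intestinal tumours had Mmp7 and Adamtsl5 higher, where 3.33% of genes were, and Adamts5 and Adamts6 lower, where 1.06% were. None of these 4 passed without subcutaneous tumour 2 or without intestinal tumour 2, and 1 passed without intestinal tumour 1.

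Between subcutaneous and orthotopic tumours no member passed edgeR's test, and 0.0132% of all genes did. At an unadjusted p under 0.05 there were 9 of 49 members, beside 20.7% of all genes in either direction. All 9 had higher values in subcutaneous tumours, and the share of all genes in that direction is not given. The median log2 difference was 0.47 over the members and 0.25 over all genes. DESeq2 called 3 members. Between second and first tap no member passed in edgeR or in DESeq2, and 0% of genes did in edgeR. Mmp8 was the 1 member under an unadjusted p of 0.05, beside 0.64% of genes.

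**Figure D2:**
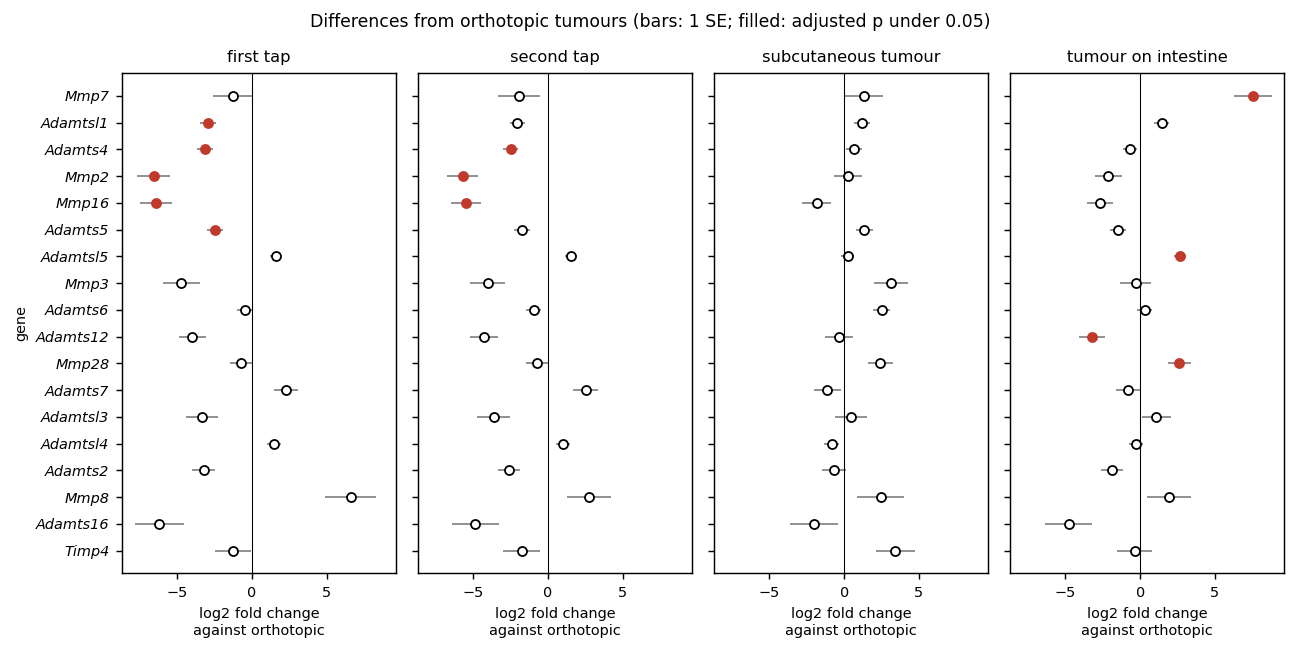
Difference from orthotopic tumours on the log2 scale, with bars of 1 standard error, for the 18 members that differed among the 5 replicated groups (1 panel per group compared, filled points at an adjusted p under 0.05). Mmp2 and Mmp16 lie lowest among the filled points in both taps, at -6.57 and -6.42 in the first and -5.71 and -5.49 in the second, and Mmp7 lies highest in the tumours on the intestine, at 7.54.

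The gelatinases Mmp2 and Mmp9, which cut denatured collagen and basement membrane collagen, differed in pattern. Mmp2 was lower in ascites than in every group of solid tumours. Mmp9 passed none of the main comparisons between replicated groups, but was lower in intestinal tumours with the second tap only, as given above. Mmp2 counted 170.3, 451 and 101 CPM in orthotopic tumours 1, 2 and 3, 47.4 and 537 CPM in subcutaneous tumours 2 and 3, and 43.7, 46.0 and 76.4 CPM in the 3 tumours on the intestine. In ascites it counted 4.0, 2.76 and 0.803 CPM at the first tap and 6.04, 6.35 and 1.40 CPM at the second, and in cultured cells 2.41 CPM. Every solid tumour lay above every ascites library, and ascites lay close to the cell line. Mmp2 fell by 6.57 ± 1.08 (SE) on the log2 scale from orthotopic tumour to first tap (n = 3 and 3, adjusted p = 0.0242, edgeR) and by 5.71 ± 1.04 to second tap (adjusted p = 0.0405). The former was lost without orthotopic tumour 1 or 2 or first tap 2 (adjusted p = 0.0622 to 0.088) and the latter without any 1 of its 6 libraries (adjusted p = 0.0528 to 0.122). Against both taps it was 6.42 ± 0.82 higher in subcutaneous tumours (adjusted p = 0.00154) and 4.02 ± 0.73 higher in intestinal tumours (adjusted p = 0.00261), and both calls held with each library left out. Subcutaneous tumour 3 set much of the size of the former, which was 3.80 without it. Healthy ovary held 66.9 CPM and healthy intestine 27.4 CPM. The 5 endothelial genes, all found, also separated solid tumours from ascites, and summed to 271 to 495 CPM in orthotopic, 346 to 688 CPM in subcutaneous and 149 to 198 CPM in intestinal tumours against 27.2 to 56.2 CPM in ascites and 1.01 CPM in cultured cells. The 7 fibroblast genes did not separate them: they summed to 1074 CPM in cultured cells, 793 and 3509 CPM in subcutaneous tumours 2 and 3 and 423 to 1617 CPM in intestinal tumours, overlapping with ascites. The part of either list in the Mmp2 difference was not tested.

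Mmp9, which neutrophils store and macrophages secrete, counted 46.1, 201 and 15.1 CPM at the first tap and 101, 148 and 63.5 CPM at the second. It counted 33.2, 5.32 and 8.53 CPM in orthotopic tumours, 36.4 and 16.7 CPM in subcutaneous tumours and 3.78, 15.7 and 22.5 CPM in intestinal tumours. Second-tap libraries all lay above the orthotopic ones, while first-tap libraries overlapped with them. The log2 differences, 2.48 ± 0.96 at the first tap (adjusted p = 0.192) and 2.73 ± 0.97 at the second (adjusted p = 0.190), did not pass edgeR's test. Against the single cell-line library, with 0.106 CPM, Mmp9 was higher by 9.63 ± 2.33 in the first tap (adjusted p = 0.0401), 9.88 ± 2.35 in the second (adjusted p = 0.0365) and 7.91 ± 2.2 in subcutaneous tumours (adjusted p = 0.0435). The second-tap call was lost without any 1 of its 3 libraries, with adjusted p up to 0.0712 without second tap 1, and the subcutaneous call without subcutaneous tumour 2 (adjusted p = 0.082).

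Among the membrane-type enzymes, Mmp16 (MT3-MMP) fell in ascites as Mmp2 did, and Mmp14 (MT1-MMP), which activates proMMP-2 with the help of TIMP-2, had lower values there that did not pass the test. Mmp16 counted 12.6, 57.5 and 11.5 CPM in orthotopic tumours and 20.8 CPM in cultured ID8 cells. Ascites held 0.192, 0.227 and 0.535 CPM at the first tap and 0.711, 0.572 and 0.514 CPM at the second. All 6 ascites libraries were below every other library of the series. The fall was 6.42 ± 1.06 on the log2 scale from orthotopic tumour to first tap (adjusted p = 0.0242) and 5.49 ± 1.00 to second tap (adjusted p = 0.0405), in edgeR's quasi-likelihood test. These calls were lost without the same libraries as those of Mmp2, at adjusted p of 0.0574 to 0.0913 and of 0.0528 to 0.133. Unlike Mmp2, Mmp16 was also lower in ascites than in cultured cells, by -6.03 ± 1.14 at the first tap (adjusted p = 0.0176) and -5.11 ± 1.1 at the second (adjusted p = 0.0264), with 1 cell-line library. The second of these was lost without any 1 of the second-tap libraries, at adjusted p of 0.0644 to 0.0774.

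In subcutaneous tumours Mmp16 counted 1.26 and 14.1 CPM and in tumours on the intestine 2.52, 2.80 and 7.33 CPM. Mmp16 was 3.28 ± 0.72 higher in intestinal tumours than in both taps (adjusted p = 0.00783), with each library left out as well. The value for subcutaneous tumours, 4.13 ± 0.77 (adjusted p = 0.00962), rested on subcutaneous tumour 3, since without it the difference was 1.53 (adjusted p = 0.363).

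Mmp14 counted 252, 298 and 160.4 CPM in orthotopic tumours, 71.4, 33.4 and 114 CPM at the first tap, 75.7, 98.4 and 119.9 CPM at the second, and 39.6 CPM in cultured cells. Both taps lay below every orthotopic tumour, with log2 differences of -1.70 ± 0.50 (adjusted p = 0.101) and -1.27 ± 0.49 (adjusted p = 0.221) that did not pass. Mmp15 (MT2-MMP) counted 262 CPM in intestinal tumour 1 but 20.0 and 24.8 CPM in the other two, and 21.9 to 58.8 CPM in orthotopic tumours, so that the groups overlapped (1.38 ± 1.33, adjusted p = 0.515). Mmp17 ranged from 0.964 to 10.9 CPM over all libraries and Mmp24 from 0.745 to 14.9 CPM. Mmp25, a lipid-anchored enzyme of leukocytes, counted 6.95 and 5.84 CPM in subcutaneous tumours and 0.0265 CPM in cultured cells. Its values lay outside the rule for printing each library and were chosen after they were seen.

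**Figure D3:**
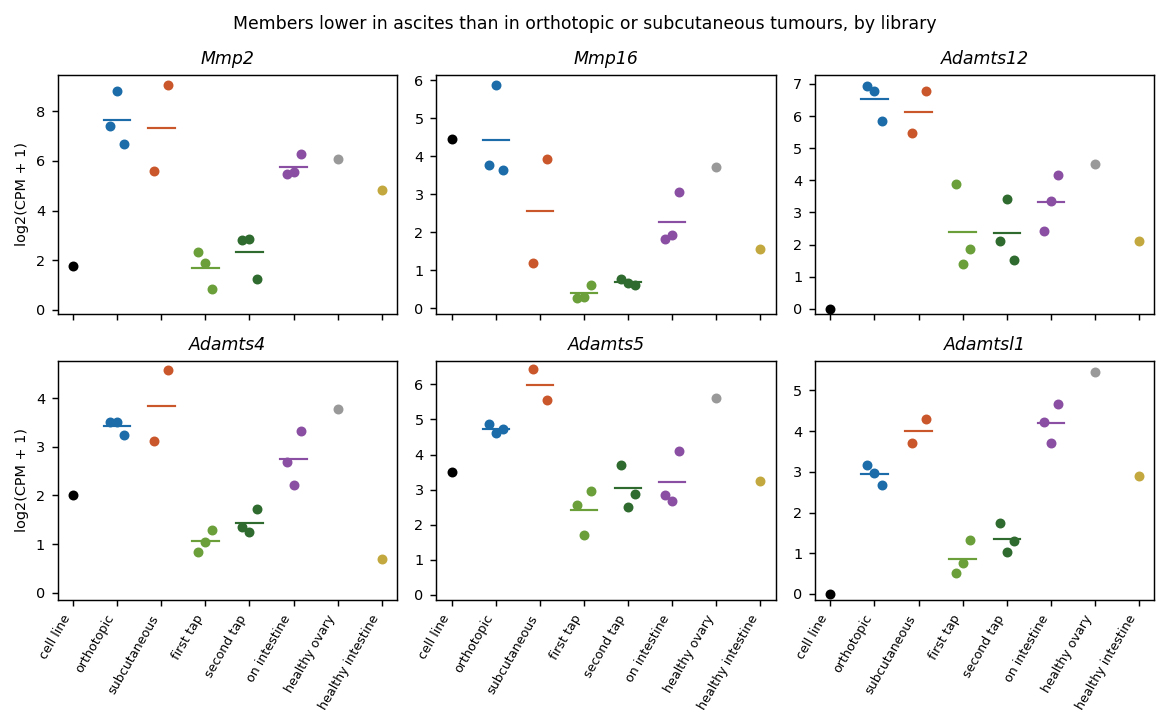
Log2(CPM + 1) of Mmp2, Mmp16, Adamts12, Adamts4, Adamts5 and Adamtsl1 in each library (points), with the mean of each group as a bar. For Mmp2 every solid tumour lies above the 6 ascites libraries, and for Mmp16 the cell line, at 20.8 CPM, lies among the orthotopic tumours.

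Genes of the collagenases, of stromelysins 1 and 2, of matrilysin and of macrophage elastase sit in 1 cluster of 10 member genes on mouse chromosome 9, in the order Mmp13, Mmp12, Mmp1b, Mmp3, Mmp1a, Mmp10, Mmp8, Mmp27, Mmp20 and Mmp7. Promoters of such genes are known for a site of AP-1, a dimer of Jun and Fos proteins, close to a TATA box. The 120 bases before the start of transcription are shown for 5 genes of the cluster whose levels are described after them, with the motif TGANTCA in capitals (sequences and starts from RefSeq, build GRCm38.p6, all on the plus strand, 5′ to 3′). They span chr9:7272394-7272513 for Mmp13, chr9:7445702-7445821 for Mmp3, chr9:7502222-7502341 for Mmp10, chr9:7691970-7692089 for Mmp7 and chr9:7558309-7558428 for Mmp8, whose stretch has no such motif.
Mmp13: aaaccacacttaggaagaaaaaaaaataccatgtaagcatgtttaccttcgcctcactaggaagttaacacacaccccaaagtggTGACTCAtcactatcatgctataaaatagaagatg
Mmp3: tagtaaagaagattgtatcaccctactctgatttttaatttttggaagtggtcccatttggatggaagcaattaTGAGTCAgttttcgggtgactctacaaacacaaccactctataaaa
Mmp10: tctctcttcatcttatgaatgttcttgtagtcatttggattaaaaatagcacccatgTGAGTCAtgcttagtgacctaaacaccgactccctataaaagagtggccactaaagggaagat
Mmp7: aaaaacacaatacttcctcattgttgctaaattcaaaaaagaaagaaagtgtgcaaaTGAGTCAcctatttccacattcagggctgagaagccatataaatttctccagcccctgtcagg
Mmp8: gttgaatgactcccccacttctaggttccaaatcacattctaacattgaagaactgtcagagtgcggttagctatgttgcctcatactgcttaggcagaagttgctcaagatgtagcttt

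TGANTCA (a palindrome, so both strands are read at once) was present between 250 bases before and 50 after the start in 8 of the 10 cluster genes, all but Mmp8 and Mmp27. Of the 12 promoter entries of the cluster 66.7% held it, against 0 of 27 entries of other members and 7.81% of 32851 mouse promoters of the same length. It lay 35 bases before the start in Mmp13, 44 in Mmp12, 46 in Mmp3, 63 in Mmp10 and Mmp7, 73 in Mmp1a, 93 in Mmp1b and 95 in Mmp20. The motif TATAAA, read on either strand, was found in 75% of the cluster's entries, 11.1% of those of other members and 13.6% of all promoters. RefSeq promoters were matched for 36 of the 51 members. All 10 cluster genes were among these, so every member without a match, such as Mmp2, Mmp9 and Mmp16, lay outside the cluster. The motifs were not looked for in those members. A match is a description of the letters and was not tested as a binding site.

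Although 8 of the 10 genes share this motif, the cluster's genes were high in different tissues. Mmp7 (matrilysin), which in mouse intestine is made by Paneth cells and activates their defensins, counted 17.3, 16.6 and 19.1 CPM in tumours on the intestine and 36.2 CPM in healthy intestine. It had no count in orthotopic tumours 1 and 2 and in 3 of the 6 ascites libraries, and at most 0.295 CPM in any other tumour or ascites library. Intestinal tumours exceeded orthotopic tumours by 7.54 ± 1.26 on the log2 scale (adjusted p = 0.00299), both taps by 9.14 ± 1.03 (adjusted p = 9.7e-05) and subcutaneous tumours by 6.22 ± 1.42 (adjusted p = 0.0344). The first and second of these calls held with each library left out, and the last was lost without either subcutaneous tumour or without intestinal tumour 1 or 2 (adjusted p = 0.0736 to 0.129). Against healthy intestine Mmp7 differed by -1.03 ± 1.23 (adjusted p = 1). Of 6 Paneth cell genes, 5 were found, with a sum of 454, 343 and 1386 CPM in the tumours on the intestine, 1348 CPM in healthy intestine and 0.399 to 1.03 CPM in orthotopic tumours. Their part in the Mmp7 difference, and that of the epithelial genes given above, was not tested. A gene on the opposite strand overlaps 11.5% of the Mmp7 exons, and how the counting treated strand is not given in the sources used here.

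Mmp3 (stromelysin 1), made by fibroblasts and able to activate other proMMPs, was highest in subcutaneous tumours, with 43.9 and 16.9 CPM. Orthotopic tumours held 3.37, 5.75 and 1.32 CPM, intestinal tumours 2.52, 0.679 and 5.23 CPM, first-tap ascites 0.219, 0 and 0.153 CPM, and second-tap ascites 0.444, 0.172 and 0 CPM. Both subcutaneous tumours were above every other library, and every solid tumour was above every ascites library. Mmp3 was 7.5 ± 1.03 higher in subcutaneous tumours than in both taps (adjusted p = 0.00215) and 4.07 ± 0.92 higher in intestinal tumours (adjusted p = 0.00911), with each library left out too. Against orthotopic tumours the subcutaneous value of 3.13 ± 1.15 did not pass (adjusted p = 0.164).

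Mmp13 (collagenase 3) was highest in cultured ID8 cells, at 42.5 CPM, against 1.38, 0.665 and 1.97 CPM in orthotopic tumours. First-tap libraries counted 24.5, 2.31 and 0.803 CPM, and the difference between orthotopic tumours and cells, -4.98 ± 1.75, did not pass (adjusted p = 0.131, 1 cell-line library). Mmp10 (stromelysin 2) was highest in healthy intestine, with 20.0 CPM, and counted 8.66 CPM in cultured cells, 6.30, 9.72 and 2.17 CPM in intestinal tumours and 0.465 to 2.00 CPM in orthotopic tumours. Neither Mmp13 nor Mmp10 differed among the replicated groups at the threshold.

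Mmp12 (macrophage elastase) counted 34.5 CPM in healthy ovary, 24.5, 5.09 and 19.7 CPM at the second tap, 6.98, 2.57 and 0.803 CPM at the first, 3.79, 1.46 and 7.11 CPM in orthotopic tumours and none in cultured cells. Mmp8, the collagenase of neutrophil granules, stood out in first tap 2 with 57.2 CPM, against 4.49 and 0.535 CPM in the other first taps, 2.19, 1.37 and 0.808 CPM at the second tap and 0.130 to 0.368 CPM in orthotopic tumours. Mmp8 differed among the 5 groups (adjusted p = 0.0308), while the difference of first tap from orthotopic tumour, 6.59 ± 1.70, did not pass (adjusted p = 0.0729) although the libraries did not overlap. The 8 neutrophil genes summed to 85.3, 543 and 30.6 CPM at the first tap, 242, 57 and 158 CPM at the second and 3.66 to 7.26 CPM in orthotopic tumours, where Ly6g, which marks neutrophils, had no count. First tap 2 was highest for Mmp8, for Mmp9 and for this list, whose part was not tested. The 4 remaining genes of the cluster, Mmp1a, Mmp1b, Mmp20 and Mmp27, were low, at most 1.28 CPM in any library.

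**Figure D4:**
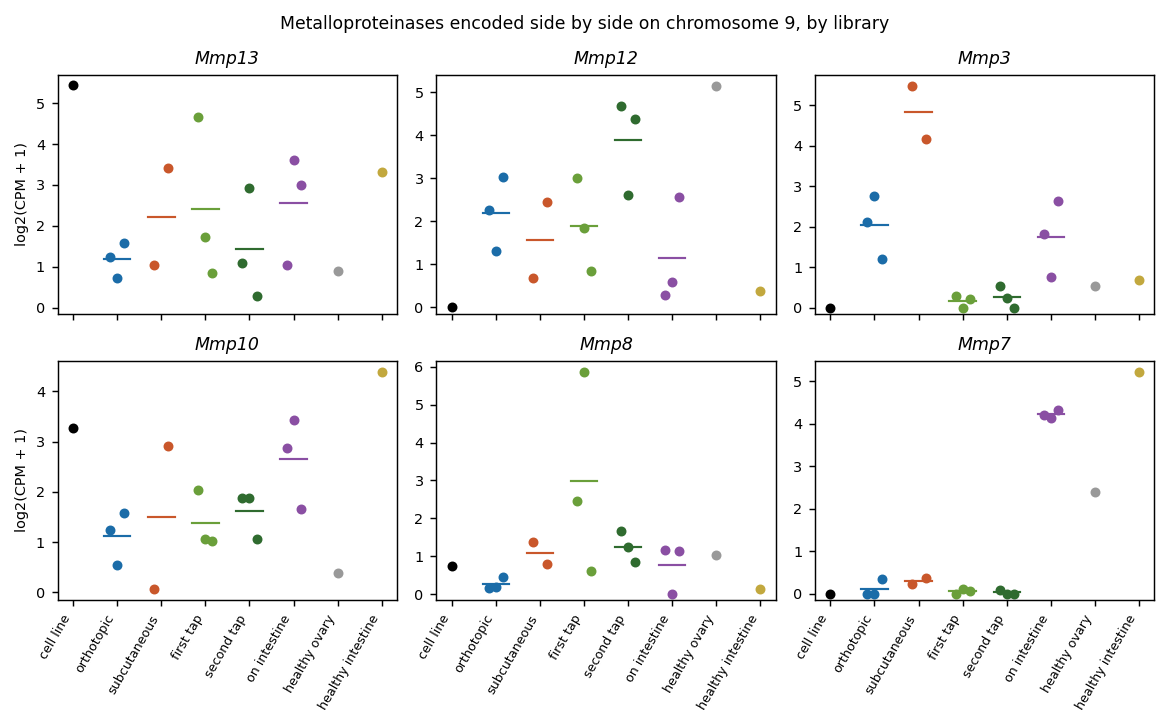
Log2(CPM + 1) of Mmp13, Mmp12, Mmp3, Mmp10, Mmp8 and Mmp7, neighbours on chromosome 9, in each library (points), with the mean of each group as a bar. Mmp13 is highest in cultured cells (42.5 CPM), Mmp3 in subcutaneous tumours (43.9 and 16.9 CPM), Mmp8 in first tap 2 (57.2 CPM) and Mmp7 in tissue from the intestine (16.6 to 36.2 CPM).

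Of the other secreted MMPs, Mmp11 was lower and Mmp28 higher in tumours on the intestine than in orthotopic tumours. Mmp11 (stromelysin 3), a protease of the stroma around carcinomas that furin activates inside the cell, counted 94.6, 129.5 and 71.6 CPM in orthotopic tumours, 81.1 CPM in cultured cells and 62.2 CPM in healthy ovary, but 3.36, 12.1 and 23.0 CPM in intestinal tumours and 1.80 CPM in healthy intestine. It fell by 2.93 ± 0.78 on the log2 scale between orthotopic and intestinal tumours, which did not overlap (adjusted p = 0.0267). That call was lost without orthotopic tumour 1 or 2 or intestinal tumour 1 or 2, at adjusted p of 0.0646 to 0.103.

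Mmp28 (epilysin), an enzyme of epithelia, counted 14.4, 31.4 and 5.80 CPM in intestinal tumours, 16.6 CPM in healthy intestine, 22.1 and 8.0 CPM in subcutaneous tumours, and 3.22, 3.89 and 1.29 CPM in orthotopic tumours. Ascites ran from 0.685 to 3.48 CPM and lay below every intestinal and subcutaneous tumour. It was 3.36 ± 0.62 higher in intestinal tumours than in both taps (adjusted p = 0.00293), in every fit that left out a library. Its excess over orthotopic tumours, 2.62 ± 0.78 (adjusted p = 0.0408), was lost without any 1 orthotopic tumour and without intestinal tumour 1 or 2, and was 1.74 without intestinal tumour 2 (adjusted p = 0.201). The subcutaneous excess over taps, 3.17 ± 0.67 (adjusted p = 0.0172), was lost without subcutaneous tumour 2 (2.26, adjusted p = 0.195). Mmp23 counted 11.1 and 6.18 CPM in subcutaneous tumours and 1.3 to 2.87 CPM in ascites, a difference of 2.18 ± 0.50 (adjusted p = 0.0236) that was lost without subcutaneous tumour 2 (adjusted p = 0.202), first tap 1 (adjusted p = 0.0525) or second tap 3 (adjusted p = 0.0501). It counted 2.52, 5.26 and 7.44 CPM in intestinal tumours, which overlapped with ascites yet passed at 1.41 ± 0.45 (adjusted p = 0.0486), and that call was lost without any 1 of 7 libraries. Mmp19 ranged from 3.34 CPM in cultured cells to 40.9 CPM in first tap 2.

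The inhibitors were led by Timp2, which both blocks MMPs and forms the complex with Mmp14 that activates proMMP-2. Timp2 counted 1798 CPM in cultured cells, 1148, 678 and 1188 CPM in orthotopic tumours, 2203, 1204 and 1417 CPM at the first tap and 1333, 2683 and 1285 CPM at the second. Lower values stood in subcutaneous tumours (164 and 581 CPM), in intestinal tumours (104, 348 and 1005 CPM), in healthy ovary (351 CPM) and in healthy intestine (80.7 CPM). Every ascites library lay above every solid tumour, so Timp2 ran opposite to Mmp2, but no difference between replicated groups passed: intestinal tumours differed from both taps by -1.79 ± 0.66 (adjusted p = 0.0789) and subcutaneous tumours by -2.18 ± 0.80 (adjusted p = 0.135).

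Timp3, the inhibitor bound to matrix, which also blocks ADAMTS-4 and ADAMTS-5, counted 798, 487 and 549 CPM in orthotopic tumours, 129.6 and 839 CPM in subcutaneous tumours, and 74.1, 131 and 243 CPM in intestinal tumours. First-tap libraries held 481, 59.3 and 811 CPM and second-tap libraries 382, 495 and 655 CPM. All intestinal tumours were below all orthotopic tumours, and the difference of -2.03 ± 0.83 did not pass (adjusted p = 0.115). Another gene overlaps 21.3% of the Timp3 exons on the opposite strand.

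Timp1 counted 50.1 CPM in cultured cells, 22.1 to 32.2 CPM in orthotopic tumours, and 1.22 and 31.6 CPM in subcutaneous tumours 2 and 3. Timp4, which fat tissue expresses, showed the reverse between these, with 26.5 CPM in subcutaneous tumour 2 and 0.638 CPM in subcutaneous tumour 3, against 0.0735 to 1.19 CPM in ascites and 10.9 CPM in healthy ovary. The edgeR call of subcutaneous tumours over both taps for Timp4, 4.93 ± 1.08 (adjusted p = 0.0200), rested on subcutaneous tumour 2, and was 0.53 without it (adjusted p = 0.851). That library is the one with 4183 CPM of adipocyte genes, whose part in the value was not tested.

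Levels were compared between genes only after division by the length of their exons (CPM per kb, exon lengths from GENCODE M21 on GRCm38). On that scale the 4 Timp genes summed to 545 in cultured cells, 259 to 429 in orthotopic tumours, 320 to 779 in ascites, 64.0 to 288 in subcutaneous tumours and 51.8 to 304 in intestinal tumours. Timp2 made up 51.8 to 96.5% of that sum in every library. The 23 Mmp genes summed to 105 to 259 in orthotopic tumours and 49.5 to 112 in ascites. Timp transcripts thus stood at 10.2, 2.86 and 9.89 times the Mmp sum at the first tap, 5.75, 8.42 and 6.72 times at the second and 8.63 times in cultured cells. Ratios in orthotopic tumours were 2.72, 1.00 and 3.84, in subcutaneous tumours 0.650 and 1.1, in intestinal tumours 0.496, 1.40 and 2.99, in healthy ovary 1.09 and in healthy intestine 0.331. The second-tap ratios all lay above every solid tumour, while first tap 2 lay within the orthotopic range. These are ratios of transcripts, given with no test.

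The Mmp that led this sum differed between libraries, also within a group. Mmp2 led in all 3 orthotopic tumours, with 28.5 to 51.7% of the Mmp sum, and in subcutaneous tumour 3, with 60.9%, and in intestinal tumour 3, with 22.3%, while Mmp3 led in subcutaneous tumour 2 with 24.8%. Mmp9 led in first tap 2 (50.7%) and second taps 1 and 2 (40.1 and 45.2%), and Mmp14 in first tap 3 and second tap 3. Mmp11 led in cultured cells with 46.2% and in first tap 1 with 22.8%, Mmp7 in healthy intestine with 40.8% and in intestinal tumour 2, and Mmp15 in intestinal tumour 1 with 46.5%.

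**Figure D5:**
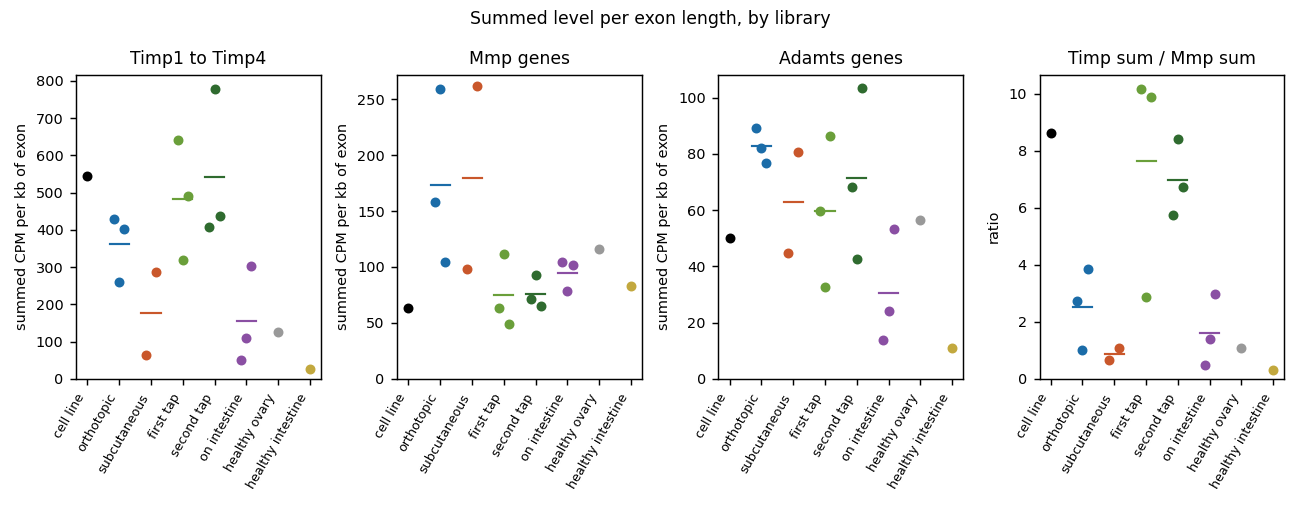
Summed CPM per kb of exon of the Timp, Mmp and Adamts genes in each library, and the ratio of the Timp to the Mmp sum, by group. The ratio is 2.86 to 10.2 in ascites and 8.63 in cultured cells, against 0.496 to 3.84 in the solid tumours.

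Among the proteoglycan-cutting ADAMTS enzymes, Adamts4, a main aggrecanase, was lower in ascites than in the solid tumours, Adamts5, the other main aggrecanase, was lower at the first tap than in orthotopic tumours and in both taps than in subcutaneous tumours, whereas Adamts1 and Adamts9 were not called in any comparison. Adamts4 counted 10.4, 10.3 and 8.45 CPM in orthotopic tumours, 7.68 and 22.8 CPM in subcutaneous tumours, 5.46, 3.61 and 9.04 CPM in intestinal tumours, 0.794, 1.06 and 1.45 CPM at the first tap and 1.54, 1.37 and 2.28 CPM at the second. Solid tumours and ascites did not overlap. Adamts4 fell by 3.14 ± 0.52 at the first tap (adjusted p = 0.0242) and by 2.49 ± 0.50 at the second (adjusted p = 0.0448) against orthotopic tumours. The former was lost without orthotopic tumour 1 or 2 or first tap 2 (adjusted p = 0.0814 to 0.0841), the latter without any 1 library (adjusted p = 0.0795 to 0.15). Above both taps it was higher by 3.46 ± 0.43 in subcutaneous tumours (adjusted p = 0.00131) and 2.13 ± 0.40 in intestinal tumours (adjusted p = 0.00307), and these calls held with each library left out.

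Adamts5 counted 28.1, 23.6 and 25.5 CPM in orthotopic tumours and 4.90, 2.23 and 6.77 CPM at the first tap, with 12, 4.72 and 6.35 CPM at the second. It was highest in subcutaneous tumours (85.7 and 45.7 CPM), and intestinal tumours held 6.19, 5.43 and 16.1 CPM, in the range of ascites but for intestinal tumour 3. The fall at the first tap was 2.47 ± 0.55 (adjusted p = 0.0477) and was lost without any 1 orthotopic tumour and without first tap 1 or 2 (adjusted p = 0.0851 to 0.15). Subcutaneous tumours exceeded both taps by 3.46 ± 0.47 (adjusted p = 0.00207), in every fit with a library left out. Intestinal tumours were lower than subcutaneous tumours by -2.82 ± 0.59 (adjusted p = 0.0236), a call lost without subcutaneous tumour 2 or intestinal tumour 1 or 2 (adjusted p = 0.0853 to 0.106).

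Adamts9 counted 223 CPM in cultured cells, 182 to 286 CPM in orthotopic tumours, 86.4 and 165 CPM in subcutaneous tumours, 124 CPM in healthy ovary, 124 to 197 CPM at the first tap and 209 to 384 CPM at the second, and 14.8, 69.6 and 224 CPM in intestinal tumours. Adamts1 counted 34.9 to 53.1 CPM in orthotopic tumours and 148, 9.56 and 136 CPM at the first tap, so that first tap 2 stood below the other two. Adamts15 counted 10.5, 17.7 and 11.9 CPM in intestinal tumours and 0 to 2.49 CPM in ascites, a difference of 3.84 ± 1.17 (adjusted p = 0.0392) that was lost in 6 of 9 fits with a library left out, at adjusted p up to 0.125. Adamts8 ran from 20.1 to 32.2 CPM in orthotopic tumours, higher than in any other library, where it reached at most 11.3 CPM.

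The procollagen N-propeptidases, which trim fibrillar procollagens before fibrils form, are Adamts2, Adamts3 and Adamts14. Adamts2 counted 156, 114 and 101 CPM in orthotopic tumours, 35.3 and 119 CPM in subcutaneous tumours, 8.08, 8.50 and 23.1 CPM at the first tap, 23.2, 12 and 24.8 CPM at the second, and 5.40 CPM in cultured cells. It differed among the groups (adjusted p = 0.0285), and the fall to the first tap missed the threshold at -3.23 ± 0.75 (adjusted p = 0.0547), with no overlap of libraries. Adamts14 had its highest values at the second tap, 48.2, 29.2 and 63.0 CPM, which overlapped with 14.1 to 42.2 CPM in orthotopic tumours. Adamts3 stayed between 1.66 and 12.7 CPM.

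Adamts7 and Adamts12, related enzymes that cut cartilage oligomeric matrix protein, ran in opposite directions. Adamts7 counted 82.4 CPM in cultured cells, 36.0, 24.6 and 179 CPM at the first tap and 73.9, 35.0 and 178 CPM at the second, against 16.4, 18.8 and 14.9 CPM in orthotopic tumours, 3.39 and 12 CPM in subcutaneous tumours and 4.51, 10.5 and 13.6 CPM in intestinal tumours. Adamts12 had no count in cultured cells and held 122, 109.7 and 56.1 CPM in orthotopic tumours, 43.5 and 108 CPM in subcutaneous tumours, 13.8, 1.63 and 2.68 CPM at the first tap, 3.35, 9.75 and 1.87 CPM at the second and 4.41, 9.17 and 16.9 CPM in intestinal tumours. For both genes every ascites library was on the same side of every orthotopic tumour, above for Adamts7 and below for Adamts12. None of these differences passed: 2.26 ± 0.81 (adjusted p = 0.160) and 2.51 ± 0.82 (adjusted p = 0.157) for Adamts7, and -3.99 ± 0.92 (adjusted p = 0.0533) and -4.26 ± 0.93 (adjusted p = 0.0525) for Adamts12, first and second tap in turn.

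Intestinal tumours had Adamts7 lower than both taps by -3.19 ± 0.80 (adjusted p = 0.0162), lost without intestinal tumour 1 or 2 at adjusted p of 0.0863 and 0.0814, and Adamts12 lower than orthotopic tumours by -3.23 ± 0.89 (adjusted p = 0.0300), lost without orthotopic tumour 1 or 2 or intestinal tumour 1 or 2 at adjusted p of 0.0824 to 0.11. Adamts12 was 3.79 ± 0.74 higher in subcutaneous tumours than in both taps (adjusted p = 0.0118), and 2.98 without subcutaneous tumour 3 (adjusted p = 0.0782).

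Adamts6 and Adamts10 form another related pair. Adamts6 counted 25.5 and 13.6 CPM in subcutaneous tumours and 26.2 CPM in healthy ovary, against 3.27 to 3.66 CPM in orthotopic tumours; ascites ran from 1.06 to 4.5 CPM. Subcutaneous tumours stood above ascites by 3.22 ± 0.46 (adjusted p = 0.00264), in every fit with a library left out, and above orthotopic tumours by 2.50 ± 0.57, which did not pass (adjusted p = 0.0662). Intestinal tumours, with 4.72, 2.76 and 5.27 CPM, were below subcutaneous tumours by -2.2 ± 0.57 (adjusted p = 0.0485), lost without any 1 of these 5 libraries (adjusted p = 0.056 to 0.19). Adamts10, whose protein takes part in fibrillin microfibrils, counted 67.8, 78.1 and 66.5 CPM in orthotopic tumours and 10.5, 20.3 and 26.6 CPM in intestinal tumours, which were lower by -1.88 ± 0.50 (adjusted p = 0.0273). They were also lower than both taps, by -1.92 ± 0.46 (adjusted p = 0.0136). Both calls were lost without intestinal tumour 1 or 2, and the former without any 1 orthotopic tumour too, with adjusted p up to 0.103.

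Adamts16 varied widely among replicates, with 31.5, 106 and 19.4 CPM in orthotopic tumours and 0.434 and 25.4 CPM in subcutaneous tumours, against 0.0548 to 3.14 CPM in ascites. Its difference from orthotopic tumours was -6.18 ± 1.67 at the first tap (adjusted p = 0.0829) and -4.78 ± 1.55 in intestinal tumours (adjusted p = 0.0566). Adamts19 was highest in healthy ovary, with 16.5 CPM there and at most 6.43 CPM elsewhere. Adamts13, Adamts17, Adamts18 and Adamts20 had means under 10 CPM in every group.

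Of the 5 ADAMTS-like genes, Adamtsl1 and Adamtsl3 (the punctins) had lower values in ascites than in every solid tumour, and Adamtsl5 was highest in tissue from the intestine. Adamtsl1 counted 7.94, 6.85 and 5.37 CPM in orthotopic tumours, 12 and 18.6 CPM in subcutaneous tumours, 17.6, 12.2 and 24.5 CPM in intestinal tumours, and 0.438 to 2.37 CPM in the 6 ascites libraries. All solid tumours were above all ascites libraries, and healthy ovary was highest at 42.9 CPM. It fell by 2.95 ± 0.52 at the first tap against orthotopic tumours (adjusted p = 0.0279), and was higher than both taps by 3.93 ± 0.41 in intestinal tumours (adjusted p = 5.71e-05) and 3.69 ± 0.43 in subcutaneous tumours (adjusted p = 0.000941). The first-tap call was lost without orthotopic tumour 1 or 2 or first tap 2 (adjusted p = 0.0944 to 0.0991), and the calls against both taps held with each library left out.

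Adamtsl3 counted 6.61, 8.74 and 19.1 CPM in intestinal tumours, 3.65 and 11.5 CPM in subcutaneous tumours, and 1.89 to 7.58 CPM in orthotopic tumours, while ascites held 0 to 0.876 CPM. Intestinal tumours exceeded both taps by 4.57 ± 0.85 (adjusted p = 0.00298), also with each library left out, and subcutaneous tumours by 3.97 ± 0.89 (adjusted p = 0.0228), lost without subcutaneous tumour 3 (2.92, adjusted p = 0.153) and without second tap 2 or 3 (adjusted p = 0.0564 and 0.0578).

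Adamtsl5 counted 70.3, 81.6 and 55.4 CPM in intestinal tumours and 103 CPM in healthy intestine, 22.1 to 41.8 CPM in ascites and 7.31 to 14.7 CPM in orthotopic tumours. These 3 ranges did not overlap, and subcutaneous tumours, with 7.82 and 17.7 CPM, lay near the orthotopic ones. The excess in intestinal tumours was 2.68 ± 0.41 over orthotopic tumours (adjusted p = 0.00168), with each library left out as well, 2.44 ± 0.47 over subcutaneous tumours (adjusted p = 0.0185) and 1.13 ± 0.32 over both taps (adjusted p = 0.0284). The second was lost without subcutaneous tumour 2 or intestinal tumour 2 (adjusted p = 0.1 and 0.0586), and the last in 6 of 9 fits with a library left out, at adjusted p up to 0.123. First and second tap stood above orthotopic tumours by 1.57 ± 0.39 (adjusted p = 0.066) and 1.51 ± 0.39 (adjusted p = 0.0841), neither past the threshold. Intestinal epithelial genes, with the sums given above, moved with Adamtsl5 between intestinal and orthotopic tumours, and their part was not tested.

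Adamtsl4, a fibrillin-binding protein, was the one member lower in subcutaneous tumours than in both taps, with 12.7 and 28.9 CPM against 57.8, 170.1 and 76.4 CPM at the first tap and 63.5, 80.7 and 79.8 CPM at the second. The difference was -2.07 ± 0.52 (adjusted p = 0.0377), and intestinal tumours, at 26.6, 24.6 and 42.2 CPM, differed from both taps by -1.48 ± 0.43 (adjusted p = 0.0312). No solid tumour of these groups reached the lowest ascites value. The former call was lost without subcutaneous tumour 2 (-1.59, adjusted p = 0.235) and the latter without intestinal tumour 1 or 2 (adjusted p = 0.162 and 0.177), and both without second tap 2 or 3 (adjusted p = 0.0538 to 0.088).

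The cell line gave 1 library, so each comparison with it assumes that it varies like the replicated groups and has no check of its own. Orthotopic tumours had 2 members higher than cultured cells (Adamts12 and Adamtsl1), where 2.37% of all genes were, and subcutaneous tumours had 8 higher (Mmp2, Mmp3, Mmp9, Mmp25, Adamts6, Adamts12, Adamtsl1 and Adamtsl3), where 6.25% were. First-tap ascites had 4 members higher (Mmp9, Mmp25, Adamts12 and Adamtsl1), where 3.11% were, and Mmp16 lower, where 1.11% were. The second tap had the same 4 higher, where 3.16% were, and Mmp16 lower, where 1.27% were. These 4 comparisons share that library, so their calls are not independent. Without subcutaneous tumour 2 the 8 became 4, with Mmp3, Mmp9, Adamts6 and Adamtsl3 lost (adjusted p = 0.0525 to 0.108), without subcutaneous tumour 3 Mmp2 and Adamtsl3 were lost (adjusted p = 0.0791 and 0.0621) while Timp4 came in as higher and Mmp10 and Timp1 as lower, and without any 1 second tap the 5 became 1, which was Adamtsl1.

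Adamts12 and Adamtsl1 had no count in cultured cells, so their folds are lower bounds, set against 3 counts in that library and covering counting error only. Adamts12 was at least 1208-fold higher in orthotopic tumours (adjusted p = 0.0211), at least 954-fold in subcutaneous tumours, at least 75.8-fold in first-tap and at least 62.8-fold in second-tap ascites. Adamtsl1 was at least 84.6-fold higher in orthotopic tumours (adjusted p = 0.0102), at least 193-fold in subcutaneous tumours, at least 10.9-fold in first-tap and at least 20.4-fold in second-tap ascites. Mmp3 and Adamtsl3, also with no count in cells, were at least 382-fold and at least 95.5-fold higher in subcutaneous tumours. Single libraries set several of these limits: for Adamts12 the limit was 27.1-fold without first tap 1, 32.8-fold without second tap 2 and 547-fold without subcutaneous tumour 3. For Adamtsl1 it was 7.04-fold without first tap 3, for Mmp3 212-fold without subcutaneous tumour 2 and for Adamtsl3 45.9-fold without subcutaneous tumour 3. The 6 macrophage genes found summed to 5.46 CPM and the 8 neutrophil genes to 0.265 CPM in cultured cells, below the sums given above for ascites, and their part in these calls was not tested.

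Healthy ovary and healthy intestine also gave 1 library each. Between orthotopic tumours and healthy ovary no member passed edgeR's test, where 0.6% of all genes did. At an unadjusted p under 0.05 there were 8 members, 3 with higher and 5 with lower values in tumours, beside 11.2% of all genes in either direction. DESeq2 called 6 members. The 5 lower ones were Mmp7, Mmp23, Adamts6, Adamts19 and Adamtsl1, and the 3 higher ones Mmp24, Adamts14 and Adamtsl4. Mmp7 counted 4.22 CPM in healthy ovary (-5.48 ± 1.29, adjusted p = 0.092) and Mmp23 29.2 CPM. Between intestinal tumours and healthy intestine no member passed edgeR's test and 0% of genes did. At an unadjusted p under 0.05 there were 6 members (Mmp11, Timp1, Timp2, Adamts2, Adamts4 and Adamts9), beside 2.58% of all genes in either direction. All 6 had higher values in the tumours, and the share of all genes in that direction is not given. DESeq2 called 1 member. Timp2 differed there by 2.59 ± 1.16 (unadjusted p = 0.0456, adjusted p = 1, edgeR).

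Other genes of the pathway were counted by 4 lists: 19 activators and further inhibitors of these proteases, 10 ADAM genes, 10 cathepsins and 19 matrix substrates. Among the 5 replicated groups 4, 4, 6 and 8 of them differed, in that order, in edgeR's F test, where 17% of all genes did. Serpine2 (protease nexin 1) and Reck, a membrane-anchored MMP inhibitor, fell with Mmp2 in ascites. Against orthotopic tumours Serpine2 was lower by -5.72 ± 0.92 at the first tap (adjusted p = 0.0242) and -5.25 ± 0.90 at the second (adjusted p = 0.0343). Reck was lower by -3.35 ± 0.71 (adjusted p = 0.0418) and -3.87 ± 0.73 (adjusted p = 0.0407). Pcsk6, a proprotein convertase, was the other of 3 genes of that list to fall at the first tap, and no gene of it rose at either tap.

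Of the matrix substrates, 6 of 19 fell at the first tap and 2 at the second, none rose, where 0.891% and 0.578% of all genes fell. Their median log2 difference was -1.76 and -1.86, beside 0.18 and 0.13 over all genes. Nid1, which links laminin to collagen in basement membranes, was lower by -4.76 ± 0.58 at the first tap (adjusted p = 0.009) and Fbn1 (fibrillin 1) by -4.68 ± 0.80 (adjusted p = 0.0262). Compared with both taps, 9 of 19 were higher in subcutaneous and 8 in intestinal tumours, beside 5.44% and 12.4% of all genes, and none was lower. Of the cathepsins, lysosomal proteases, none fell at either tap against orthotopic tumours, Ctsd (cathepsin D) rose by 2.47 ± 0.50 at the second tap (adjusted p = 0.0458), and 4 of 10 (Ctsa, Ctsb, Ctsd and Ctsl) were lower in intestinal tumours than in both taps. Ctse, named here after its value was seen, was higher in subcutaneous tumours than in both taps, by 2.25 ± 0.46 (adjusted p = 0.0145). Of the ADAM genes, Adam8, which encodes an enzyme of leukocytes, rose at the first tap by 3.68 ± 0.81 (adjusted p = 0.0456, edgeR). Adam15 rose there by 2.59 ± 0.56 (adjusted p = 0.0446, edgeR), and no member of the list fell. Between intestinal or subcutaneous and orthotopic tumours none of the 4 lists had a gene past the threshold. Macrophage genes, higher in ascites as given above, moved with the 4 cathepsins that were lower in intestinal tumours, while Ctse ran the other way. The part of the macrophage genes was not tested. Unlike the calls of members, those of genes in the 4 lists are not given with single libraries left out. Nor is the share of all genes that rose at either tap.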

How the data were processed

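RNA was extracted with Trizol and sequenced from directional NEBNext Ultra II libraries of total RNA, per the labels' protocols. The deposited table holds raw counts per gene and library. The submitters' processing notes name HISAT, HISAT2, featureCounts and DESeq2 and the builds hg19 and mm39, and versions, strand setting and the role of each are not given in the sources used here. Of the columns of per-sample values, 1 matched no sample and was not used. The 17 libraries of 8 groups were fitted together with edgeR 4.0.16 (R 4.3.3, limma 3.58.1; TMM; genes above 0.5 CPM in at least 2 libraries; quasi-likelihood tests; Benjamini-Hochberg over 22671 genes) and, as an alternative, with DESeq2 1.42.0. Fits were run on simulated counts drawn independently for each library, with genes changed in tumours on the intestine only. That setting holds no tissue mixture and no shared mice, so it does not check the fits against either. Values per library are given for members with a mean of at least 10 CPM in a group or a call between replicated groups, other members by range, and at most 4 genes per pathway list by smallest p. Members and lists were chosen with earlier results of these data known. Comparisons with both taps and of intestinal with subcutaneous tumours, and promoter motifs, were added after the data were seen. Whether library numbers pair libraries could not be settled, as detailed in the closing section. Alternatives were other size factors, no filter, DESeq2, a replicate block, fits of only the compared groups, a term for library names, 1 tap only, and libraries left out.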

Additional observations from a re-analysis of the deposited data

How the results depend on the processing

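Counts of members called (adjusted p under 0.05) depended on the setting, and none of 65 calls followed changed sign in any of the fits. Of these, 23 were kept in every alternative, 27 in every fit with a library left out, and DESeq2 also made all 65. The shares of all genes called under the alternative settings are not given, here or in the paragraphs above. Member counts under those settings therefore do not show whether a gain or loss is particular to the members. DESeq2 called more members: 3 (subcutaneous), 18 (first tap), 13 (second tap) and 12 (intestine) against orthotopic tumours; 17, 27, 10 and 12 for orthotopic, subcutaneous, first tap and second tap against cells; 6 for orthotopic tumour against healthy ovary, 1 for intestine against healthy intestine and 9 for intestine against subcutaneous. With no filter on low counts, calls against cells were 5 (subcutaneous), 3 (first tap) and 2 (second tap). With only the compared groups fitted, second tap and intestine against orthotopic tumours gave 13 and 17. A term for library names in S gave 3 for either tap against cells. Without the 3 libraries with the most genes (added after seeing the data), counts against orthotopic tumours were 3 (subcutaneous), 13 (first tap) and 12 (intestine), against cells 5 (orthotopic) and 3 (second tap), and 2 for orthotopic tumour against ovary; without both subcutaneous tumours (also added), 9 and 5 for first and second tap. With the first tap only (added), calls against taps were 6 (subcutaneous) and 7 (intestine), and with the second only 8 and 11. Leaving out single libraries gave 0 to 10 for first tap, 0 to 0 for second tap, 2 to 12 for intestine and 0 to 1 for subcutaneous against orthotopic tumours, 4 to 9 for subcutaneous and 1 to 1 for second tap against cells, 9 to 18 and 8 to 17 for subcutaneous and intestine against both taps, 0 to 3 for intestine against subcutaneous, and 12 to 24 for any difference. With a replicate block on 14 libraries, first tap gave 3, second tap 0 and intestine against subcutaneous 2. All other comparisons of replicated groups stayed within 1.5 times. Same-numbered libraries correlated at -0.557 to 0.441 over 26 pairs and other-numbered ones at -0.352 to 0.673. These ranges overlap, and deviations from the mean of so few libraries are tied to each other. Whether the numbers pair libraries is thus not settled, and a call lost under the block counts as lost. Members near 0 counts, such as Mmp7 outside the intestine, have folds that counting error limits.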
